A study of Arabidopsis thaliana with 6 samples.

Results

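The GILT-type thiol reductases are a small family of Arabidopsis thaliana genes named after a mammalian enzyme, the gamma-interferon-inducible lysosomal thiol reductase. The family has 6 genes here: GILT (locus AT4G12960), AT4G12870, AT4G12890 and AT4G12900 on chromosome 4, AT1G07080 on chromosome 1, and AT5G01580 on chromosome 5. Members were taken as probe sets that the platform annotation names with a single gene of the family. Of the 6 genes, 3 had such a probe set: GILT, AT4G12890 and AT1G07080, with 1 each. These are 3 of the 22746 probe sets on the array that are not controls. AT4G12870, AT4G12900 and AT5G01580 were not analysed here. The family was selected on the measured difference of GILT between old and young pods on these arrays, so the values of that contrast are given for its members as a description, with no test.

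In mammals, GILT reduces disulfide bonds of proteins inside the lysosome, which opens folded proteins to the proteases there. Plants have no interferon, and the plant vacuole takes the lysosome's place as the main compartment of protein breakdown. RefSeq gives AT5G01580 the symbol OSH1, for OAS HIGH ACCUMULATION 1, and gives AT4G12890 and AT1G07080 no name beyond the locus.

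RNA came from siliques, the seed pods, of the accession Col-1 grown in a glasshouse under continuous light, and was hybridised to 6 Affymetrix ATH1 arrays, 3 of old pods and 3 of young pods. No mutation or treatment is given for either group, and the labels record the same tissue, mature and senescing siliques, and the same developmental stage for all 6, so only the titles separate old from young. The labels do not say how pod age was set, or that the replicates came from separate plants, so p-values measure only the spread between these samples. A pod holds valves, seeds and a dehiscence zone, and in such bulk RNA fewer cells of a type and less RNA per cell cannot be told apart.

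Signals are linear MAS5 intensities, scaled to a trimmed mean of about 100 on every array. Median signals were 39.5 to 49.6 on the old arrays and 49.5 to 52.9 on the young arrays. A signal under the 40th percentile of its array (24.3 to 34.5 on the old arrays, 32.5 to 36.5 on the young arrays) was treated as dim, and a probe set was tested when it was above the percentile on at least 3 of 6 arrays. Arrays of 1 group correlated at 0.858 to 0.951 over the tested probe sets and arrays of different groups at 0.580 to 0.693. The 3 prime over 5 prime log2 ratio of the actin control transcript, a measure of RNA quality, was 3.40, 3.79 and 3.41 in old pods, against 3.19, 3.09 and 3.05 in young pods. Those of the GAPDH (1.91 to 3.98) and ubiquitin (1.24 to 2.59) controls overlapped between the groups. The 3 prime end was thus the brighter on every array for each control, and the part of RNA quality in the differences below was not tested.

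The members of the chromosome 4 cluster and the member on chromosome 1 differed. GILT and AT4G12890 were bright on all young arrays and far lower on all old arrays, while AT1G07080 had nearly the same signal on all 6 arrays.

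GILT had signals of 206.3, 13.1 and 37.4 in old pods, against 8763.0, 5017.0 and 5523.1 in young pods. Every old array was far below every young array, and old replicate 1 stood above the other old arrays. On the log2 scale the means were 5.54 ± 2.01 in old pods and 12.61 ± 0.43 in young pods (SD, n = 3 each). The log2 fold change, old over young, was -7.07 with a standard error (SE) of 0.86, which is 134-fold lower in old pods. Old replicate 2 was dim, and with its signal raised to the percentile GILT was 108-fold lower. By replicate number the old pods were lower by 42.5-fold, 383-fold and 148-fold in replicates 1, 2 and 3. Without old replicate 1 GILT was 282-fold lower and without old replicate 2 it was 71.0-fold lower. The 383-fold and 282-fold values use the dim signal of old replicate 2 as deposited. The spread of GILT between old arrays was large, with 99.2% of all tested probe sets having a smaller SD there. Among the 13502 tested probe sets that were above the percentile on at least 1 array of each group, none had a more negative log2 fold change, and this rank is part of what brought GILT forward.

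AT4G12890 had signals of 5.0, 4.4 and 6.4 in old pods, against 696.5, 643.8 and 1271.9 in young pods. All old arrays were dim and all young arrays were well over the limit, so the groups lay apart and only a bound can be given. AT4G12890 was at least 30.0-fold lower in old pods, from the young mean against the percentiles of the old arrays. On the signals as deposited the log2 fold change was -7.32 (SE 0.31), with -7.12, -7.19 and -7.63 by replicate number. Old replicate 1 did not stand out here, unlike in GILT, although signals this far under the percentile have no reliable order. In young pods the brightest array was replicate 3, where for GILT it was replicate 1.

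AT1G07080 had signals of 863.0, 1059.7 and 972.5 in old pods, against 912.6, 881.9 and 946.0 in young pods. The groups overlapped, and both the lowest and the highest array were of old pods. The means were 965 ± 98.6 in old pods and 914 ± 32.1 in young pods (SD, n = 3 each). The log2 fold change was 0.07 with an SE of 0.18, and its sign turned with quantile normalization (-0.03). The brightest of the 6 arrays was 1.23-fold above the dimmest, and 1.17% of the tested probe sets (167 of 14277) had a smaller range over the 6 arrays.

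**Figure D1:**
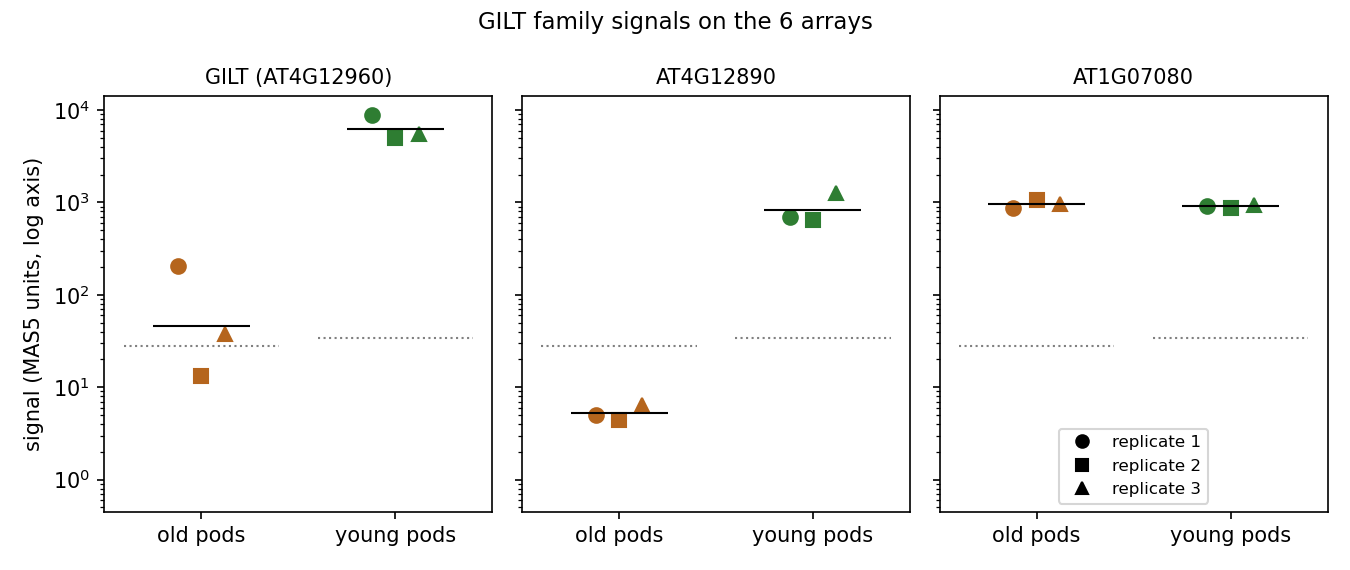
Signal (MAS5 units, log axis) of the 3 family members on each array, old pods left and young pods right, with a marker for each replicate, a black line at the geometric mean of the group and a dotted grey line at the mean 40th percentile of the group's arrays. GILT and AT4G12890 lie orders of magnitude lower in old pods, the old signals of AT4G12890 (4.4 to 6.4) are all under the dotted line, and AT1G07080 stays between 863.0 and 1059.7.

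The mean log2 fold change of the chromosome 4 members, GILT and AT4G12890, minus that of AT1G07080 was -7.27. By replicate number it was -6.18, -8.15 and -7.46, so the gap was present at each of the 3 replicate numbers. With dim signals raised to the percentile the gap was -5.90, and it rests on 2 genes against 1. Median centring and scaling on controls or on reference genes shift all 3 members alike and leave this gap as it was. The signals of old and young pods did not overlap, with old pods lower, for 2 of the 3 members, beside 23.0% of all tested probe sets, and nothing is read from this count since the contrast chose the family.

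The genes whose pattern was most like that of GILT were sought among 7622 tested genes outside the family, by the distance between mean-centred log2 signals over the 6 arrays. The nearest was AT5G38180, at a distance of 0.90 and a Pearson correlation of 0.996. It had signals of 34.3, 2.3 and 6.0 in old pods, against 1087.2, 1285.5 and 1371.7 in young pods. AT5G38180 was dim on all 3 old arrays and was at least 44.9-fold lower there, and its low signals have no reliable order among themselves.

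BAN, the reductase that commits anthocyanidins to seed coat tannins, came next at a distance of 1.51. BAN had signals of 46.8, 8.2 and 10.7 in old pods, against 1657.0, 1289.1 and 2714.7 in young pods. CHIL, a chalcone isomerase-like gene of the flavonoid pathway, followed at a distance of 1.68, with 34.5, 3.0 and 3.1 in old pods, against 747.4, 775.4 and 1681.5 in young pods. AT4G19460 and AT4G15750 were next, at 1.76 and 2.09. AT4G15750 was above the percentile on all 6 arrays, with 93.3, 36.9 and 31.2 in old pods, against 4577.9, 3654.9 and 4289.2 in young pods. Of these 5 genes, AT5G38180, CHIL and AT4G19460 were dim on every old array and BAN on 2 of 3, so much of the likeness to GILT within old pods rests on dim signals. Among the 1062 probe sets that passed the test as lower in old pods and were above the percentile on all 3 old arrays, old replicate 1 was the highest of them for 44.3%, against 37.0% of the 12063 tested probe sets that were above it on all 3.

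AT4G12890 was at a distance of 3.01 from GILT with a Pearson correlation of 0.945, and 13 genes outside the family were nearer. AT1G07080 was at a distance of 9.28 with a correlation of -0.63. These correlations describe 6 arrays in 2 groups and carry no p-value. In a setting added after the data were seen, dim signals were raised to the percentile, and the order changed. AT4G15750 became the nearest at a distance of 1.33, DELTA-VPE (1.99) and AT1G56100 (2.03) took the places of CHIL and AT4G19460, BAN was at 2.14 and AT5G38180 was the last of the 5 at 2.59. AT4G12890, dim on all old arrays, was at 3.15 in that setting, with 9 genes nearer.

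**Figure D2:**
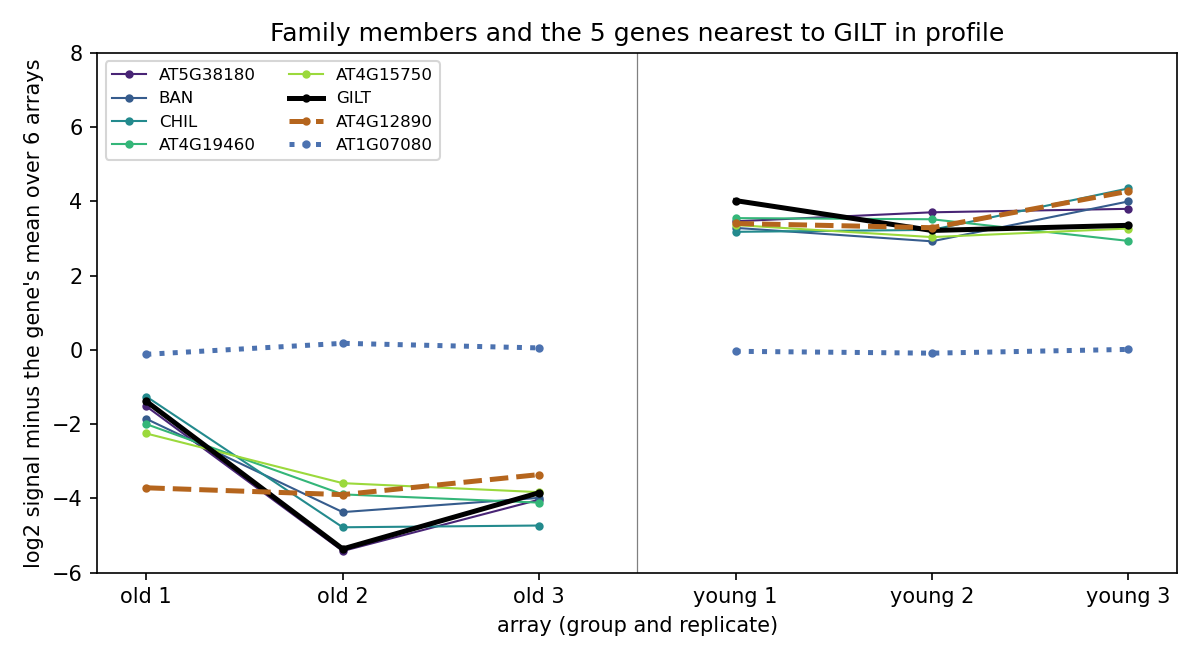
Log2 signal of each gene minus its own mean over the 6 arrays, old arrays left and young arrays right of the grey line, for the 3 family members (thick lines) and the 5 genes nearest to GILT (thin lines). GILT, AT4G12890 and the 5 nearest genes lie below 0 on the old arrays and above 0 on the young arrays, with many of the old signals dim, and AT1G07080 runs close to 0 throughout.

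The chromosome 4 members do not all lie side by side. In the gene order of the TAIR10.1 annotation, AT4G12870, AT4G12890 and AT4G12900 are close together with ENODL19 among them, and GILT lies 7 protein-coding genes after AT4G12890. Of the 27 other protein-coding genes from AT4G12770 to AT4G13060, 15 were named by a probe set, of which 11 were tested. In the limma fit, 4 of these 11 neighbours fell and none rose at an adjusted p under 0.05, beside 22.0% of all tested probe sets called in either direction (12.3% lower and 9.68% higher in old pods). The neighbours' median log2 fold change was -0.29, against -0.08 for all tested.

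The deepest fall among the neighbours was in scpl20, a serine carboxypeptidase-like gene that follows AT4G12900 in gene order. It had signals of 190.6, 159.6 and 233.2 in old pods, against 1424.4, 1529.8 and 2635.6 in young pods. All old arrays were below all young arrays, and scpl20 fell with a log2 fold change of -3.22 (SE 0.28, limma adjusted p = 0.000508). AT4G12980, the second gene after GILT, fell by 2.08 on the log2 scale (SE 0.29, limma adjusted p = 0.00274). AT4G13050 and AT4G12830 fell by 1.75 and 1.51.

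The other 7 tested neighbours did not pass. AT4G12990 and AT4G13000, which come next after AT4G12980, were at 0.34 and -0.29. Of the 6 genes between AT4G12870 and GILT that are not of the family, scpl20 alone was tested. STOMAGEN, the next gene after GILT and known as a secreted peptide that promotes stomata, was dim on all 6 arrays, at 1.5 to 18.8 in old pods and 2.7 to 27.6 in young pods.

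**Figure D3:**
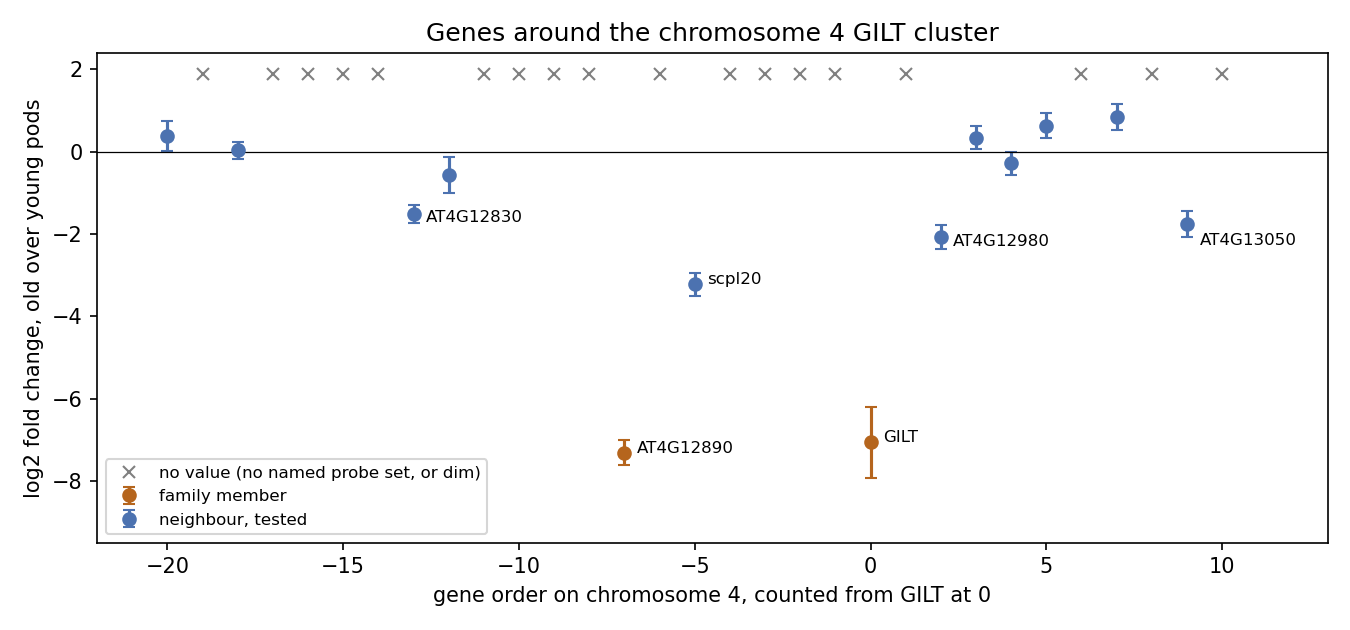
Log2 fold change, old over young pods (points, with SE bars), of the tested genes around the chromosome 4 members, ordered along the chromosome and counted from GILT at 0, with family members in brown and other genes in blue. Grey crosses at the top mark genes with no tested value. GILT and AT4G12890 are at -7.07 and -7.32 on the signals as deposited. AT4G12890 was dim on all old arrays, and its bound is at least 30.0-fold lower, a smaller fall than the point drawn. The gene scpl20 is at -3.22 and the 10 other neighbours are between -2.08 and 0.85.

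Other genes of thiol and disulfide chemistry were read from lists by function. Of 17 disulfide isomerases and thiol oxidases of the secretory pathway, which make or rearrange disulfide bonds, PDIL5-1 alone had a named probe set. PDIL5-1 had 129.9, 149.5 and 130.7 in old pods, against 120.6, 136.7 and 129.8 in young pods, overlapping groups with a log2 fold change of 0.08 (SE 0.17). Of 15 thioredoxins h, glutaredoxins C and their reductases, 5 were tested, and 3 rose and none fell, beside 9.68% of all tested probe sets called higher and 12.3% called lower. The 5 were glutaredoxins C and GR1, and no thioredoxin h or thioredoxin reductase had a named probe set. The median log2 fold change of these 5 was 1.17, against -0.08 for all tested.

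GRXC1, a glutaredoxin that reduces disulfides with glutathione, had 573.7, 540.0 and 504.8 in old pods, against 201.4, 286.7 and 221.7 in young pods. The groups lay apart, and GRXC1 rose 2.30-fold (SE 0.19 on the log2 scale, limma adjusted p = 0.00468). GRXC2, of the same class, rose 2.27-fold (limma adjusted p = 0.0136), a call that ended without young replicate 2 (adjusted p = 0.0563). GR1, the glutathione reductase that keeps glutathione reduced, rose 2.24-fold (limma adjusted p = 0.0143). The GR1 call ended without old replicate 2, old replicate 3 or young replicate 2 (adjusted p up to 0.0569). The loci AT1G77370 and AT5G20500, glutaredoxins C of the list, did not pass, at log2 fold changes of 0.73 and 0.13.

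Proteases of the vacuole, the class of enzyme that GILT works beside in the mammalian lysosome, moved in both directions. Of 23 vacuolar processing enzymes, papain-type and aspartic proteases, 13 were tested, 2 rose and 2 fell, with a median log2 fold change of 0.58. These 4 calls are 30.8% of the 13, beside 22.0% of all tested probe sets, and a share this near that of the array is not read as a result about the list. DELTA-VPE, which acts in seed coat cells, had 181.2, 41.3 and 29.7 in old pods, against 2281.8, 2444.0 and 3758.4 in young pods. The groups lay apart with old replicate 1 the highest of the old arrays, and DELTA-VPE fell by 5.51 on the log2 scale (SE 0.61, limma adjusted p = 0.00118). Without old replicate 1 its fall was 78.7-fold, against 45.5-fold with all arrays.

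The locus AT2G21430 of this list fell by 2.23 on the log2 scale (limma adjusted p = 0.0113). AT4G01610 rose by 1.35 (limma adjusted p = 0.0051), with 679.3, 630.4 and 801.5 in old pods, against 210.0, 329.7 and 298.1 in young pods. AT1G02305 rose by 0.82 (limma adjusted p = 0.0226). The AT1G02305 call ended without old replicate 2 or 3 or without young replicate 1 or 3 (adjusted p up to 0.0836).

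**Figure D4:**
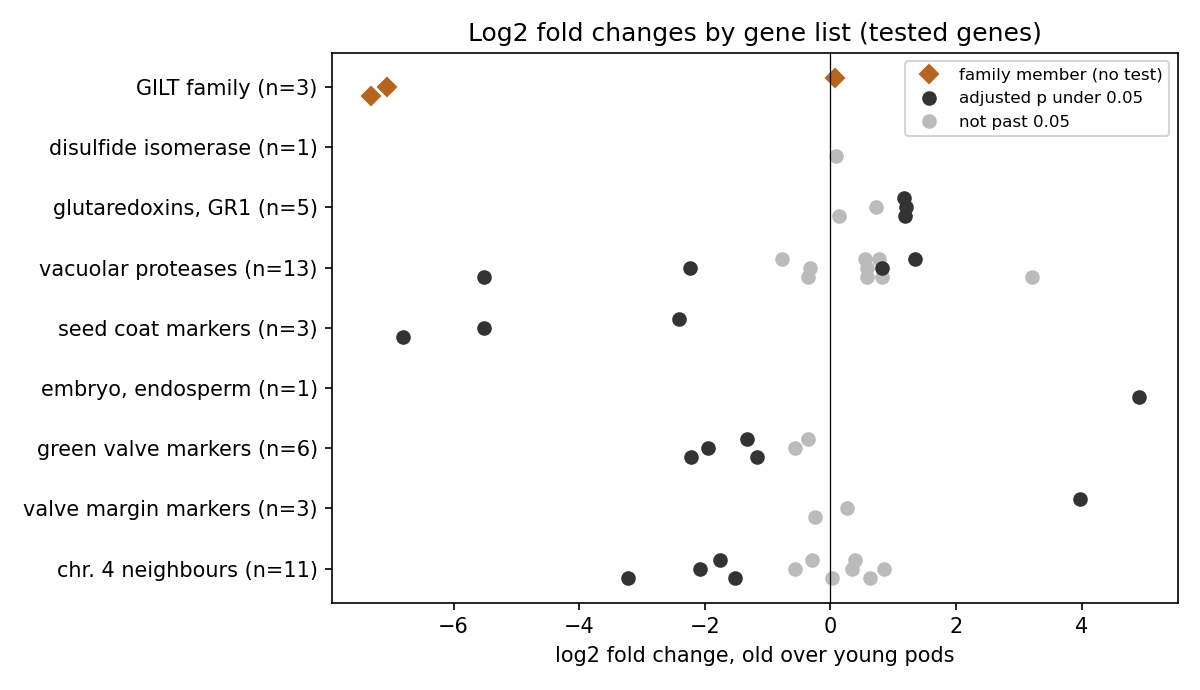
Log2 fold change, old over young pods, of the tested genes of each list, 1 point per gene, with the family on top as brown diamonds (not tested) and list genes in black where the limma adjusted p was under 0.05 and grey where it was not. The glutaredoxins and GR1 lie right of 0, the seed coat and green valve markers left of 0, and DELTA-VPE, in both the protease and the seed coat list, is at -5.51.

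Markers of the tissues in a pod moved between the groups beside the GILT values, and their part in the difference of the members was not tested. The marker counts below stand beside 12.3% of all tested probe sets called lower in old pods and 9.68% called higher. Of 17 seed coat markers, 4 were named by a probe set, of which 3 were tested, and BAN, DELTA-VPE and ARA12, a subtilase of the seed coat mucilage, fell. The summed signal of the 4 was 334 to 582 in old pods and 5767 to 8313 in young pods. In old pods ARA12 and DELTA-VPE were above the percentile on all 3 arrays and BAN on 1, and the remaining marker, AT3G50990, was dim on all 3. In young pods AT3G50990 was at 762.3, 384.7 and 13.2, dim on replicate 3, and its groups overlapped. Of 13 green tissue markers of the valve 6 were tested, and 4 fell: PSAN and PSAE-1 of photosystem I, the antenna protein LHCB4.2 and the Calvin cycle phosphatase SBPASE. Their log2 fold changes were -2.22, -1.17, -1.95 and -1.33, and the summed signal of the 6 was 6263 to 7124 in old pods and 11898 to 15078 in young pods. RCA and PRK of the same list did not pass, at -0.36 and -0.56. Without replicate 2 or 3 of old or of young pods LHCB4.2 did not pass (adjusted p up to 0.0864), and it was at -2.56 without young replicate 1.

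In the valve margin list ADPG1, a pectin-cutting enzyme of pod opening, rose by 3.97 (limma adjusted p = 0.000387), and ALC and SPT did not pass at -0.24 and 0.27. The summed signal of these 3, of 9 on the list, was 1503 to 1850 in old pods and 582 to 965 in young pods. Of 19 embryo and endosperm markers, the seed storage protein PAP85 and AGL62 had a named probe set, with a summed signal of 223 to 3725 in old pods and 25.7 to 38.9 in young pods, and AGL62 was dim on all arrays. PAP85 was at 3700.8, 214.9 and 210.1 in old pods, against 25.9, 14.9 and 15.8 in young pods, and old replicate 1 was again the highest. PAP85 was dim on all young arrays and met the filter only through the old arrays. Its limma call is counted with the list calls but is not read as a result. PAP85 was at least 16.1-fold higher in old pods, a bound that rests on old replicate 1. The bound was at least 6.21-fold without that array, while leaving out old replicate 2 or old replicate 3 gave bounds of 25.8-fold and 26.1-fold.

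Scaling the arrays on the hybridisation control transcripts ended 14 of the 19 calls among these lists and neighbours, with adjusted p of at least 0.0906. The changes themselves moved by only -0.02 on the log2 scale, for example to -1.35 for SBPASE and -2.11 for AT4G12980. The calls of BAN, DELTA-VPE, ADPG1 and scpl20 held under that scaling, as did that of PAP85, which is not read as a result.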

How the data were processed

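The deposited values are intensities, 1 linear signal per probe set, for which the submitters' processing notes name MAS5. No version or detection call was used here. The platform annotation names 1 gene for 13513 probe sets, of which 13436 were found by gene number in the TAIR10.1 table. Where several named a gene, the brightest was used. Probe sequences were not used here, so cross-hybridisation between cluster genes was not checked.

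Signals were floored at 0.1 and taken as log2. The comparison of pod ages used lmFit and eBayes of limma 3.58.1 (R 4.3.3) with a variance trend, two-sided, with Benjamini-Hochberg adjustment over 14277 probe sets and a threshold of 0.05. The fit was run on simulated data with large changes planted in 200 probe sets and noise independent between arrays. That run gives no error rate for calls of smaller changes. A bound sets the bright group's mean against the higher of the percentile and the dim signal. The number of arrays limits the precision. Named genes were the members, up to 4 called genes of each list by size of change (the 2 brightest where none passed), the 5 genes nearest to GILT, and BAN, DELTA-VPE and ADPG1. AT4G12990, AT4G13000, STOMAGEN, AT1G56100, AT3G50990, AGL62, ALC, SPT, RCA, PRK, AT1G77370 and AT5G20500 were named after their values were seen. Members and lists were chosen with earlier results of these data known. Arrays with the same replicate number in their titles deviated together from their group means, with correlations of 0.286, 0.113 and 0.119, so the numbers were taken to pair the arrays.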

Additional observations from a re-analysis of the deposited data

How the results depend on the processing

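GILT and AT4G12890 stayed lower in old pods under each of the 12 alternatives run for them. Leaving out 1 array gave log2 fold changes of -8.14 to -6.15 for GILT, -7.50 to -7.01 for AT4G12890, 0.00 to 0.15 for AT1G07080, and -7.87 to -6.68 for the chromosome 4 members minus AT1G07080. AT4G12890 was at -4.91 with dim signals raised and at -5.32 on the log2(signal + 16) scale, and the gap between the members was -5.90 and -5.97, since both settings lift dim signals. AT1G07080 was at 0.33 with median centring, which moved the median of all tested probe sets by 0.26. In all, 3145 probe sets passed, 1382 higher and 1763 lower in old pods, and with median centring 1890 were higher and 1138 lower. Scaling on the hybridisation controls gave 628 in all and 6 list and neighbour genes, against 19. The mean log2 signal of these controls was 9.52, 8.04 and 7.85 on old arrays 1, 2 and 3. On young arrays 1, 2 and 3 it was 9.40, 8.29 and 7.66. That scaling thus shifts the arrays of 1 group by unlike amounts, and the part of this in the lost calls was not tested. Leaving out 1 array gave 1736 to 3602 probe sets and 16 to 21 list calls, with fewer samples in each fit. With the replicate number as a block, 3480 probe sets and 21 list genes passed, and each of the 19 list calls held. Dim signals limit the old values of AT4G12890.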
